A study of Mus musculus with 6 samples.

Results

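The genes described here encode the proteasome, its activators and inhibitor, the chaperones that assemble it, and NFE2L1, a transcription factor that drives its genes. They were chosen by a rule on names, as the rows of the deposited table whose protein-coding symbol in GENCODE M21 begins with Psma to Psmg and a number, plus Pomp and Nfe2l1. Earlier results of these data were known when they were chosen. The rule gave 50 of the 15176 genes in the table. It gave 52 genes in the annotation, and the other 2, Psmb11, the thymic catalytic subunit, and Psma8, the testis alpha subunit, have no row in the table analysed here. Of the 50, Psmc3ip matched by name only: it encodes a meiotic recombination factor and not a proteasome subunit. The cap subunits Sem1 and Adrm1 have other names and are not among the 50. Counts of lid, cap and standard subunits below leave them out. All 50 had a mean value of at least 10 over the libraries and entered the test.

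The proteasome degrades proteins tagged with ubiquitin. Its 20S core is a barrel of outer alpha rings and inner beta rings, and the proteolytic sites sit on the beta subunits PSMB5, PSMB6 and PSMB7. The 19S cap binds, unfolds and feeds in the substrate through a base with a ring of ATPases and a lid that removes ubiquitin. Under interferon and in immune cells, PSMB8, PSMB9 and PSMB10 take the places of the standard catalytic subunits to form the immunoproteasome, which favours peptides for MHC class I. NFE2L1 (NRF1) raises the transcription of proteasome genes when proteasome activity falls short, and in brown fat it is known to sustain proteasome activity during thermogenesis.

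The RNA was from whole iWAT, the inguinal white fat under the skin, of mice that were all fed a high-fat diet (HFD), with no other diet for comparison. The Steap4f/f group, with the floxed allele, had 4 libraries (replicates 1, 2, 5 and 6), and the Steap4AKO group, in which the gene was removed in adipocytes, had 2 (replicates 2 and 3). The sources used here do not give the Cre driver, the age and sex of the mice or whether each library came from a separate mouse, so a p-value here measures only how these samples spread, which may be technical. Values are counts normalized by the authors with DESeq2, and in every list of 6 values below the 4 Steap4f/f libraries come first, in the order of their replicate numbers, followed by the 2 Steap4AKO libraries.

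The targeted gene, Steap4 (chromosome 5, 7960457 to 7982213, GRCm38), had 17018, 9417, 8310.0 and 8851, then 8313 and 8014. Its gene-level value in whole tissue missed the threshold (log2 difference -0.35, SE 0.29, limma adjusted p = 0.544), Steap4AKO replicate 2 lay inside the Steap4f/f range, and the deleted part of the gene is not given. All 10 adipocyte markers were above 0 in every library, with a sum of 362390 in Steap4AKO replicate 2 against 574450 to 700790 elsewhere. All 16 skeletal muscle markers had lower means in Steap4AKO, 14 without overlap, and their mean level was 0.57 and 4.99% of the Steap4f/f mean there against 25.2 to 191% within Steap4f/f. Steap4AKO replicate 2 stood apart: 973 genes were more than 2-fold above every other library, against 20 to 148 for each of the others, its 15 leukocyte markers summed to 19734 against 3708 to 5003 elsewhere, and its 8 epididymal and epithelial markers to 11053 against 49.8 to 159. Most of that sum was the epididymal gene Crisp1, with 8127 in this library against 0 to 3.34 elsewhere. Values of whole tissue cannot tell fewer cells of a type from less RNA per cell.

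On the authors' scaling most genes of the standard proteasome had modestly lower means in Steap4AKO, and none passed the test. With table sums made equal 27 of the 50 genes had higher means instead and 23 lower ones, where 32.0% of all genes tested had lower means. Of the 50 genes, 0 passed an adjusted p of 0.05 (limma over 15006 genes, 0.473% called), and 9 had an unadjusted p under 0.05, a share close to the 18.1% of all genes tested. All 9 had lower means, as did 1449 of the 2717 genes tested with such a p (9.66% of all genes tested). The median log2 difference was -0.17, against 0.02 over all genes tested, and 40 of the 50 had a lower mean log2 value, against 47.8% of all genes. In 16 of the 50 both Steap4AKO libraries lay below every Steap4f/f library (14.4% of all genes tested), and in 1 both lay above (14.1%). These 16 were all subunits of the core or cap. Leaving out a library can only add genes to either count. Without Steap4AKO replicate 2, 26 genes were below (23.4% of all genes tested) and 4 above (24.4%), and without Steap4AKO replicate 3, 22 were below (28.6%) and 4 above (31.5%). With the muscle index as a covariate the median of the 50 was -0.16. That index did not overlap between the groups, so its part cannot be told apart from that of genotype, here and in later values adjusted for it. The deposited values summed to less in Steap4AKO (16573561 and 17979641) than in Steap4f/f (18846321 to 20547925), and making them equal moved the median of all genes to 0.21 and that of the 50 to 0.01. On that scale 5 lay below without overlap (7.67% of all genes). The 50 stood below the median of all genes by 0.19 under the authors' scaling and by 0.19 with equal sums.

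**Figure D1:**
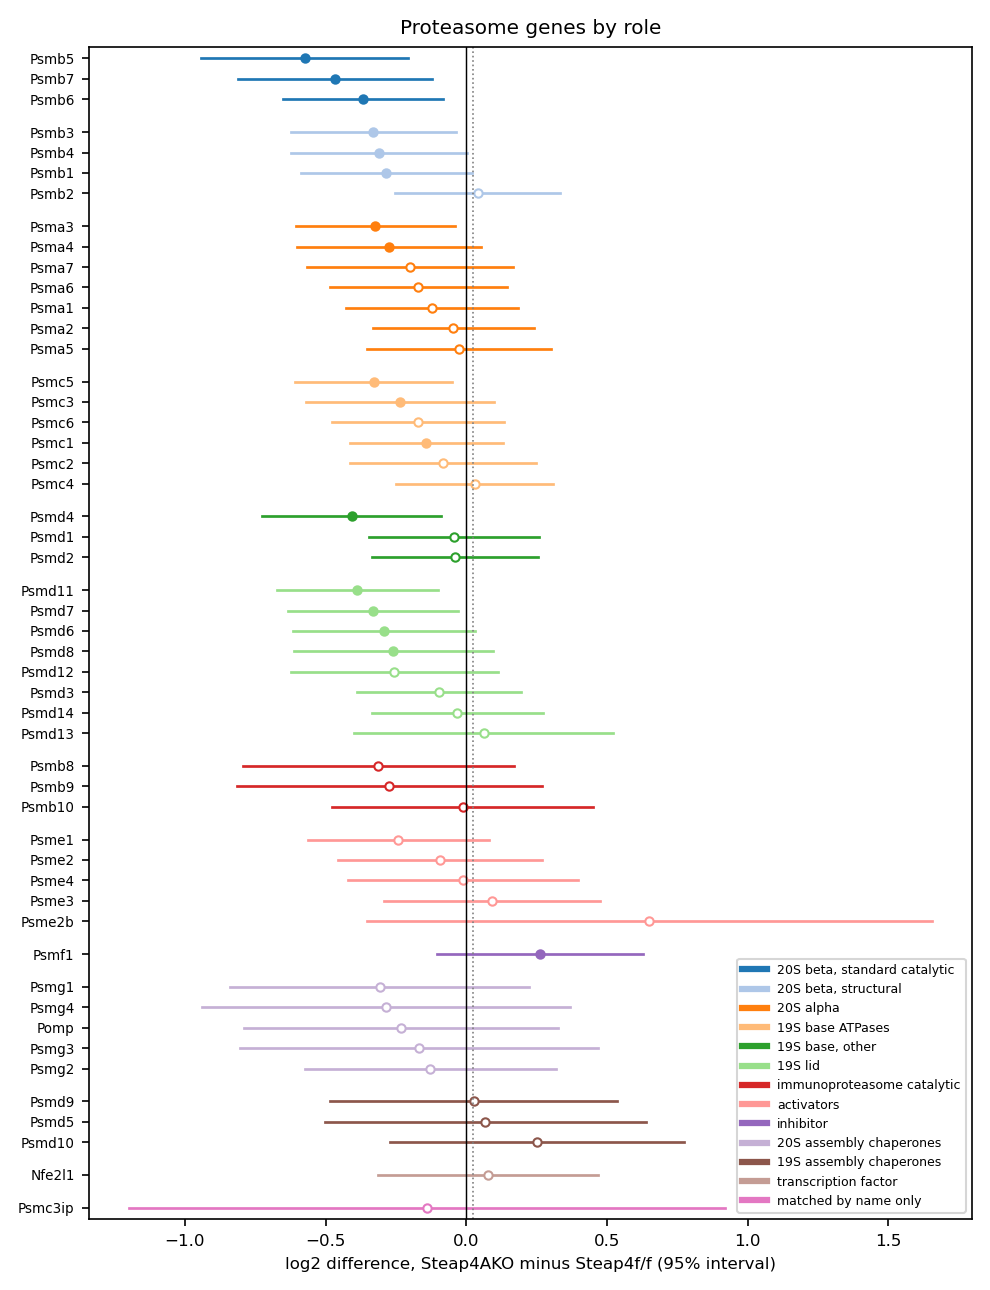
Log2 difference (Steap4AKO minus Steap4f/f, x axis) of each of the 50 genes with its 95% interval from limma, coloured by role; filled points mark genes whose 2 Steap4AKO libraries lie outside the range of the 4 Steap4f/f libraries, and the dotted line is the median of all genes tested (0.02). Values are on the authors' scaling, and equal table sums would move the points to the right and 17 lower genes above 0. Psmb5 and Psmb7 lie farthest to the left, and activators and assembly chaperones have open points.

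The 3 standard catalytic subunits had the lowest median of any role group with 3 or more members (log2 difference -0.47, and -0.28 with equal table sums). All 3 were below without overlap on the authors' scaling (14.4% of all genes tested). Psmb5, the chymotrypsin-like subunit (ENSMUSG00000022193, chromosome 14, 54614119 to 54618022, minus strand), had 1409, 1260.3, 1643 and 1241, then 984 and 871. Even the higher Steap4AKO value lay well under the lowest Steap4f/f value. Its mean was 1388 ± 186 (SD, n = 4) against 928 ± 79.7 (SD, n = 2), or 1.497-fold lower, with a log2 difference of -0.57 (SE 0.16, 95% interval -0.94 to -0.21, limma adjusted p = 0.144). This was the largest lower difference among the 50.

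Psmb7, the trypsin-like subunit (chromosome 2, 38588036 to 38644087), had 2415, 2553, 2402 and 1934, then 1625 and 1727. Steap4f/f replicate 6 was the lowest of its group and came closest to the Steap4AKO values. The mean was 1.39-fold lower (log2 difference -0.47, SE 0.15, limma adjusted p = 0.182). Psmb6, the caspase-like subunit (chromosome 11, 70525367 to 70527858), had 1716, 1846, 1848 and 1662, then 1339.5 and 1399. Its mean was 1.29-fold lower (log2 difference -0.37, SE 0.12, limma adjusted p = 0.192).

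These differences also showed within each library, where no scaling enters. The 3 standard catalytic subunits made up 21.5, 23.4, 25.0 and 21.4% of the summed values of the 14 standard core subunits in Steap4f/f and 19.4 and 20.1% in Steap4AKO. Both Steap4AKO shares lay below all 4 Steap4f/f shares. With table sums made equal, Psmb5 and Psmb6 were still below without overlap, with log2 differences of -0.39 and -0.18, and Psmb7, at -0.28, was not. With the muscle index as a covariate the 3 log2 differences were -0.73 for Psmb5, -0.65 for Psmb7 and -0.41 for Psmb6. In that fit the lowest limma adjusted p of the 50 genes was 0.256. Since the index did not overlap between the groups, its part and that of genotype cannot be told apart.

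**Figure D2:**
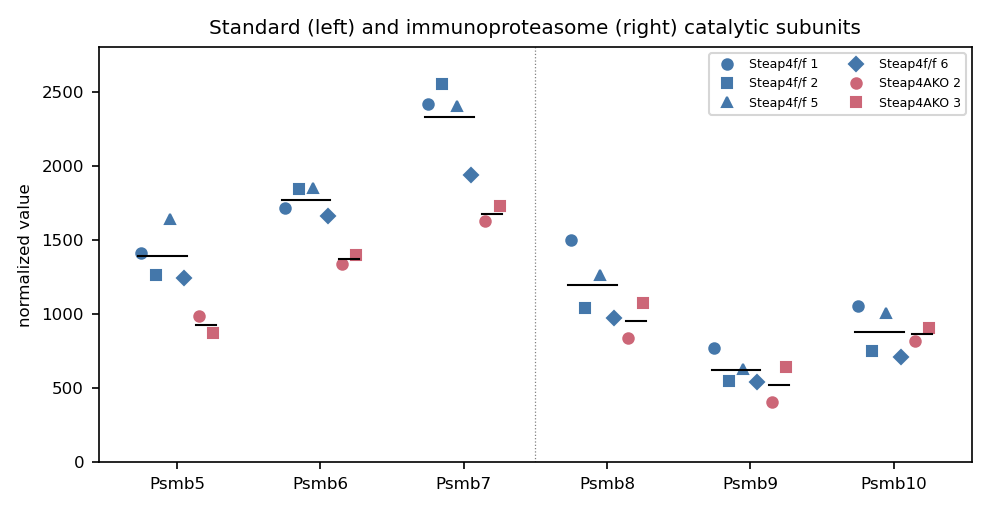
Normalized values (y axis) of the 3 standard catalytic subunits (left) and their 3 immunoproteasome counterparts (right) in each library, with bars at group means. For Psmb5, Psmb6 and Psmb7 both Steap4AKO points lie under all 4 Steap4f/f points, and for Psmb8, Psmb9 and Psmb10 the groups overlap.

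NFE2L1 binds antioxidant response elements, whose core letters were searched as TGACNNNGC on both strands in the RefSeq promoter windows (GRCm38.p6) from 250 bases before to 50 after each start. Windows matched 43 of the 50 symbols, and Psmb1, Psmb2, Psmb7, Psmc3, Psmd3, Psmd7 and Psmg2 had none. A match was found for 6 of the 43 genes (14%), Psmb5, Psmb6, Psmc6, Psmd12, Psmd9 and Psme4, against 14.8% of 17492 protein-coding genes, so that the letters were about as frequent as elsewhere. The median log2 difference was -0.21 for the 6 and -0.14 for the other 37. CCAAT boxes (CCAAT, both strands) were found for 15 of 43 (34.9%), against 42.3% of protein-coding genes. Both standard catalytic subunits with a window had the element close to the start, from base -47 in Psmb5 and from base -9 in Psmb6. The immunoproteasome subunits Psmb8, Psmb9 and Psmb10 had windows without a match. The 250 bases before the start are shown for these 2 and for Psmb4, a structural subunit of the same ring that was also below without overlap and had no match, with the match in capitals. Psmb5 lies at chr14:54617996-54618245 (minus strand), Psmb6 at chr11:70525107-70525356 (plus strand) and Psmb4 at chr3:94886959-94887208 (minus strand).
Psmb5: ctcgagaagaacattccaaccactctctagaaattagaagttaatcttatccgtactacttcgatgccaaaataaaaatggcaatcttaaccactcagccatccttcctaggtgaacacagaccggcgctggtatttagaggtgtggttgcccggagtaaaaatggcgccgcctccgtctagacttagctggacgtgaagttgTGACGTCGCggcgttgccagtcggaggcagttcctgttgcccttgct
Psmb6: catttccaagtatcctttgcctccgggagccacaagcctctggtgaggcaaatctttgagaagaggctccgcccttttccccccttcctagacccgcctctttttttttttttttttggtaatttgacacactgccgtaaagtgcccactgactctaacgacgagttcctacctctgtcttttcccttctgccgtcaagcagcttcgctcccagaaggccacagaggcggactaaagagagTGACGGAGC
Psmb4: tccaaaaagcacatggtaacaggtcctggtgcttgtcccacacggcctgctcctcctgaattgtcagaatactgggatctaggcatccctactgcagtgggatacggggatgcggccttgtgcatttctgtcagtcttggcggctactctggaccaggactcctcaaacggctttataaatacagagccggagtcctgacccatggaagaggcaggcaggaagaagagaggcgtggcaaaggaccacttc
A match is a run of letters and does not show binding.

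Of the 4 structural subunits of the beta ring, 3 were below without overlap on the authors' scaling (14.4% of all genes tested) and 0 with equal table sums (7.67%). Psmb3 had 1595, 1397, 1411 and 1457, then 1199.5 and 1129, a 1.26-fold lower mean (log2 difference -0.33, SE 0.13, limma adjusted p = 0.235). Psmb4 had 2076, 1774, 1753 and 2046, then 1586 and 1488, a 1.24-fold lower mean (limma adjusted p = 0.279). Psmb1, with 2204, 2140.2, 1951 and 1854 followed by 1611 and 1727, had a 1.22-fold lower mean. Psmb2 stood at 1354, 1362, 1208 and 1232, then 1346 and 1301, so that its Steap4AKO values lay inside the Steap4f/f range (log2 difference 0.04, 95% interval -0.25 to 0.33). In the whole beta ring 6 of 7 standard subunits were below every Steap4f/f library on the authors' scaling (14.4% of all genes tested). With equal table sums 2 of 7, Psmb5 and Psmb6, were (7.67% of all genes).

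The alpha ring, which gates the entrance to the core, had smaller differences. All 7 subunits had lower means, though Psma1, Psma2, Psma5 and Psma6 had higher ones with equal table sums. The median log2 difference was -0.17, and 2 were below without overlap (14.4% of all genes tested). With equal table sums 1 was, Psma3 (7.67% of all genes). Psma3 had 2272, 2256, 2017 and 2148, then 1695 and 1777 (1.25-fold lower mean, log2 difference -0.32, SE 0.12, limma adjusted p = 0.23). Psma4 had 2132, 1954, 1854 and 1647, then 1529 and 1594 (1.21-fold lower mean, log2 difference -0.27). The remaining 5 had overlapping groups and log2 differences from -0.20 in Psma7 to -0.03 in Psma5. Psma2 and Psma5 had log2 differences within 0.05 of 0, and that of Psma5 was 0.01 without Steap4f/f replicate 1. Steap4f/f replicate 1 was the highest library for all 7 alpha subunits (median log2 deviation from the Steap4f/f mean 0.13).

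In the 19S base the 6 ATPases, which unfold the substrate, had a median log2 difference of -0.16 on the authors' scaling, with Psmc1, Psmc2 and Psmc6 turning positive at equal table sums. Of the 6, 3 were below without overlap (14.4% of all genes tested) and 0 with equal table sums (7.67%). Psmc5 had 1830.1, 1958, 2052 and 2004, then 1585 and 1535, a 1.26-fold lower mean (log2 difference -0.33, SE 0.12, limma adjusted p = 0.22). Psmc3 had 2259.7, 2781, 2228 and 2609.8, then 1993 and 2191 (1.18-fold lower mean). Psmc1 had 1981, 1922, 2039 and 1868, then 1743 and 1796 (1.10-fold lower mean, and a log2 difference of 0.04 with equal table sums). Psmc4 lay between 1239.6 and 1354 over all 6 libraries (log2 difference 0.03). Psmd4, a ubiquitin receptor of the base (chromosome 3, 95032694 to 95042614), had 2924, 2713, 2320.3 and 2749, then 1955 and 2069. This was the largest difference among the 17 cap subunits chosen by name, though Sem1, a lid subunit outside the rule, had a larger one (-0.55). Its mean was 1.33-fold lower (log2 difference -0.41, SE 0.14, limma adjusted p = 0.194). The large scaffold subunits Psmd1 and Psmd2 had a log2 difference of -0.04 each, and of 0.14 with equal table sums. Psmd1 had 2347, 2802, 2368 and 2539, then 2487 and 2379, both inside the Steap4f/f range. Psmd2 had 3774, 3794, 4096 and 3964, then 4094 and 3521, with 1 Steap4AKO library near the top of the range and the other below it.

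In the lid, 4 of 8 subunits were below without overlap (14.4% of all genes tested), and the median log2 difference was -0.26 on the authors' scaling. At equal table sums Psmd3 and Psmd14 turned positive, and Psmd11 alone was still below without overlap (7.67% of all genes). Psmd11, which clamps the lid to the core (chromosome 11, 80428615 to 80473248), had 1747, 1708, 1552 and 1759.8, then 1307 and 1277. Its 2 Steap4AKO values lay close together and well under the Steap4f/f range, with a 1.31-fold lower mean (log2 difference -0.39, SE 0.12, limma adjusted p = 0.182). Psmd7 had 1828, 1863, 1557 and 1707, then 1380.5 and 1376 (1.26-fold lower mean, limma adjusted p = 0.243). Psmd6 had 1497, 1564, 1499 and 1481, then 1392 and 1091, where Steap4AKO replicate 3 was the lower of the pair. Psmd8 had 2149, 2545, 2388 and 2953, then 2062 and 2102 (1.20-fold lower mean, and a log2 difference of 0.01 with the muscle index as a covariate). Psmd14, the deubiquitinase of the lid, had 1236, 1314, 1320.2 and 1139.9, then 1274 and 1174, inside the Steap4f/f range. Psmd13 had a log2 difference of 0.06, and Psmd12 and Psmd3 overlapped with -0.26 and -0.10. Over core and cap together, 28 of 31 standard subunits chosen by name had lower means on the authors' scaling (47.8% of all genes tested). In 16 of 31 the groups did not overlap and Steap4AKO was below (14.4% of all genes tested). With equal table sums these were 17 of 31 (32.0% of all genes) and 5 of 31 (7.67%). Sem1 and Adrm1, outside the rule, had lower means with overlapping groups.

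The sums of core and cap overlapped as a ratio. The 14 standard core subunits summed to 79.7, 68.9, 72.5 and 65.0% of the 17 cap subunits in Steap4f/f and to 67.6 and 67.1% in Steap4AKO, within the Steap4f/f range. The median log2 difference was -0.28 for the core and -0.17 for the cap, and with equal table sums -0.10 for the core and 0.01 for the cap. The difference between core and cap was not tested.

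**Figure D3:**
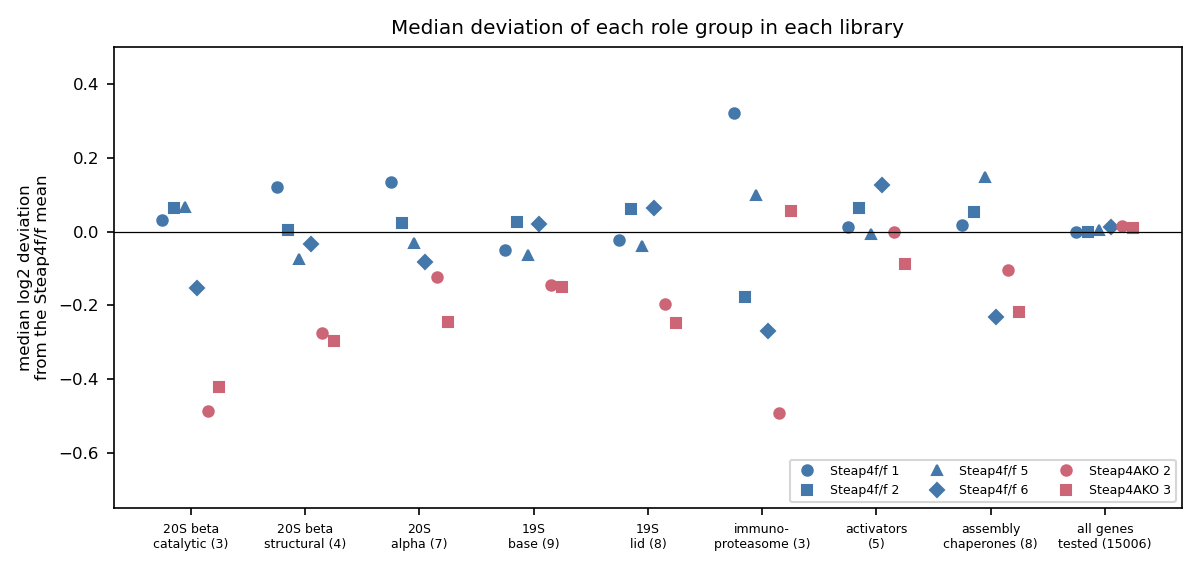
Median log2 deviation from the Steap4f/f mean (y axis) of each role group in each library, with the number of genes in brackets, on the authors' scaling (equal table sums move all medians of Steap4AKO up). Both Steap4AKO libraries lie below all 4 Steap4f/f libraries in the catalytic and structural beta subunits, the alpha ring, the base and the lid, and the 6 libraries lie close to 0 for all genes tested.

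The immunoproteasome subunits had overlapping groups in all 3 genes. Psmb8 (chromosome 17, 34197721 to 34201454) had 1502, 1042, 1262 and 976, then 838 and 1074 (log2 difference -0.31, SE 0.21, limma adjusted p = 0.456). Psmb9 (chromosome 17, 34181987 to 34187764) had 771, 548, 631 and 544, then 407 and 641 (log2 difference -0.27, SE 0.23). Psmb10 (chromosome 8, 105935735 to 105938444) had 1056, 754, 1007 and 712, then 817 and 909 (log2 difference -0.01, SE 0.20). All 3 were highest in Steap4f/f replicate 1, and Psmb8 and Psmb9 were lowest in Steap4AKO replicate 2, the library with the highest leukocyte markers, whose part in these values was not tested. Without that library the median log2 difference of the 3 genes was 0.05 instead of -0.27, and without Steap4AKO replicate 3 it was -0.49. With the muscle index as a covariate the log2 differences were -0.67 for Psmb8, -0.55 for Psmb9 and -0.37 for Psmb10.

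Psmb8 and Psmb9, but not Psmb10, lie beside the genes for peptide transport: Psmb9 and Tap1 are on opposite strands of chromosome 17 and overlap by 212 bases, Psmb8 begins 495 bases beyond Tap1, and Tap2 follows 2072 bases beyond Psmb8. Tap1, a subunit of the transporter that carries peptides into the endoplasmic reticulum, had 1178, 1009.7, 1358 and 1032, then 959 and 1706. Like Psmb8 and Psmb9 it was higher in Steap4AKO replicate 3 than in replicate 2. Of 10 partners in class I antigen processing, 0 passed the test in limma (1 with an unadjusted p under 0.05), 3 were below without overlap (B2m, H2-K1 and H2-D1) and 1 above (Tapbp). Over all genes tested the shares were 18.1% with such a p, 14.4% below and 14.1% above. H2-D1, a class I heavy chain, had 47637, 39692, 38888 and 32632, then 24234 and 31049 (1.44-fold lower mean, limma adjusted p = 0.285). Tapbp, which helps load peptide, had 4450.3, 4328, 5384 and 5533, then 5911 and 7031 (1.31-fold higher mean, limma adjusted p = 0.255).

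Each immunoproteasome subunit was set against the standard subunit it replaces, in each library. The log2 ratio of Psmb10 to Psmb7 was -1.19, -1.76, -1.25 and -1.44, then -0.99 and -0.93. Both Steap4AKO ratios were above all 4 Steap4f/f ratios, with a difference of means of 0.45. Psmb10 itself had a log2 difference of -0.01 and Psmb7 of -0.47, so the ratio differed through the lower values of Psmb7. The log2 ratio of Psmb8 to Psmb5 was 0.09, -0.28, -0.38 and -0.35, then -0.23 and 0.30, and that of Psmb9 to Psmb6 was -1.15, -1.75, -1.55 and -1.61, then -1.72 and -1.13. In both, Steap4AKO replicate 3 was above every Steap4f/f library and replicate 2 inside their range. Without Steap4AKO replicate 2 these 2 differences were 0.53 and 0.39, and without replicate 3 they were -0.0043 and -0.20. Per length of the principal transcript, Psmb8 was present at 42.4 to 58.9% of the level of Psmb5 in Steap4f/f, Psmb10 at 26.1 to 38.7% of Psmb7 and Psmb9 at 17.5 to 26.5% of Psmb6. In Steap4AKO these percentages were 47.0 and 68.1, 44.5 and 46.6, and 17.9 and 27.04.

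**Figure D4:**
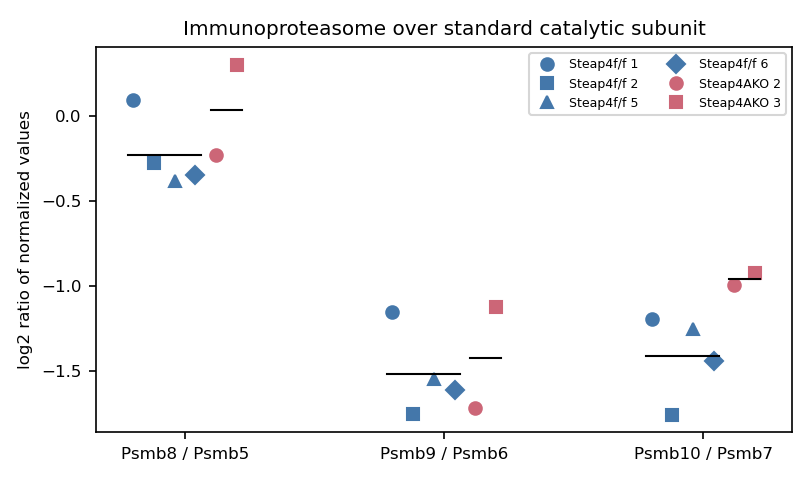
Log2 ratio of normalized values (y axis) of each immunoproteasome subunit to the standard subunit it replaces, per library, with bars at group means. For Psmb10 over Psmb7 the 2 Steap4AKO points (-0.99 and -0.93) lie above the 4 Steap4f/f points, and the other pairs overlap.

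Activators, which open the core without the 19S cap, had overlapping groups in all 5 genes. Psme1, a subunit of the interferon-inducible activator PA28, had 1749.9, 1815, 1886 and 1518, then 1401 and 1540.3 (1.18-fold lower mean, log2 difference -0.24, SE 0.14, limma adjusted p = 0.395). Psme2, its partner, whose gene lies 5911 bases away on the opposite strand of chromosome 14, had 1764, 1498, 1585 and 1299, then 1527 and 1342 (log2 difference -0.09). Psme3, which forms the nuclear activator, had 1287, 1538, 1251 and 1594, then 1339.7 and 1682 (log2 difference 0.09). Psme4, which encodes PA200, had 1551, 2065, 1658 and 2205, then 1935 and 1740.1 (log2 difference -0.01, and 0.30 with the muscle index as a covariate). Psme2b had low values of 76.5, 30.6, 50.3 and 55.3, then 71.0 and 90.1, with the largest higher difference of the 50 (0.65, SE 0.43). It shares 68.7% of its words of 50 bases with Psme2, so that the split of reads between these genes is uncertain.

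Psmf1, which encodes the inhibitor PI31, was the gene above without overlap. Psmf1 had 667, 520.3, 656 and 609, then 732 and 731 (1.19-fold higher mean, log2 difference 0.26, 95% interval -0.10 to 0.63, limma adjusted p = 0.415). With equal table sums its log2 difference was 0.44, and 6 genes lay above without overlap, where 25.7% of all genes did.

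The assembly chaperones had overlapping groups in all 8 genes. Pomp, which completes the maturation of the core, had 1294, 1499.6, 1620.3 and 883, then 1139 and 1061, so that Steap4f/f replicate 6 was below both Steap4AKO libraries. Its log2 difference was -0.23 (SE 0.24, limma adjusted p = 0.637). Psmg1, which pairs with Psmg2 to build the alpha ring, had 207, 237, 252 and 299, then 223 and 177, and Psmg4 had 234, 137, 176 and 145, then 145 and 133. All 5 core chaperones had lower means (median log2 difference -0.23), though Psmg2 and Psmg3 had higher ones with equal table sums, and all 3 base chaperones had higher means (0.07). Psmd10, a base chaperone also called gankyrin, had 265, 267, 281 and 206, then 351 and 258 (log2 difference 0.25), and Psmd5 had 477, 592, 709 and 470.0, then 725 and 466. Steap4AKO replicate 2 was the highest library for both. Without it the log2 difference was 0.03 for Psmd10, -0.09 for Psmd9 and -0.25 for Psmd5, so the higher means of the base chaperones rest on that library.

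Nfe2l1 (ENSMUSG00000038615, chromosome 11, 96817414 to 96829968, minus strand) had 9914, 11290.0, 10912 and 11572, then 9986 and 13274. The Steap4AKO libraries stood near the bottom of the Steap4f/f range and above it. The log2 difference was 0.08 (SE 0.17, 95% interval -0.31 to 0.47, limma adjusted p = 0.831), and it was -0.13 without Steap4AKO replicate 3. Of 14 factors that process, partner or resemble NFE2L1, 0 passed the test in limma and 1 had an unadjusted p under 0.05 (18.1% of all genes tested). This was Sel1l, part of the complex that moves proteins out of the endoplasmic reticulum, with 1754, 1882, 2119.9 and 2007, then 3112 and 2570.0 (1.46-fold higher mean, limma adjusted p = 0.128). Maff, a small MAF partner, had 133, 39.6, 80.7 and 133, then 244 and 130.0 (log2 difference 1.03, SE 0.54, limma adjusted p = 0.354), with overlapping groups. The AAA ATPase Vcp, the protease Ddi2 and the paralog Nfe2l2 had log2 differences of -0.06, -0.04 and 0.11. The meiotic gene Psmc3ip, matched by name, was low, with 26.96, 41.7, 27.2 and 46.7, then 33.3 and 29.5.

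Genes that bind the proteasome or supply substrate had means on both sides. Of 16 factors that bind the proteasome or bring substrates to it, 10 had lower and 6 higher means, and 0 passed the test in limma. An unadjusted p under 0.05 was found for 4 of the 16, against 18.1% of all genes tested. The shuttle protein Ubqln2 had 1056, 1075, 1146 and 1126, then 1803 and 1823. Its 2 Steap4AKO values lay close together and far above the Steap4f/f range, with a 1.65-fold higher mean (log2 difference 0.72, SE 0.12, limma adjusted p = 0.0527). Another shuttle, Rad23b, had 2108, 2768, 2428 and 2524, then 3409 and 3392 (1.38-fold higher mean, limma adjusted p = 0.167). The list also holds cap subunits that the naming rule missed. Sem1, the smallest lid subunit, had 777, 845, 752 and 521, then 550.5 and 430.3, a 1.48-fold lower mean with overlapping groups. Adrm1 had a log2 difference of -0.15, also with overlapping groups.

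Of 6 ubiquitin genes and activating enzymes, 5 had lower means, 2 were below without overlap and 0 passed the test in limma (2 with an unadjusted p under 0.05). Over all genes tested 14.4% were below without overlap and 18.1% had such a p. Ubb, a polyubiquitin gene, had 32579, 30001, 24386 and 26086, then 18009 and 19008 (1.53-fold lower mean, log2 difference -0.60, SE 0.19, limma adjusted p = 0.182). The activating enzyme Uba1 had a log2 difference of -0.01.

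Standard subunits varied little within Steap4f/f. The median coefficient of variation over the 4 libraries was 7.95% for the 31 core and cap subunits, against 19.2% for all genes tested, 18.9% for the assembly chaperones and 19.8% for the immunoproteasome subunits. The chaperones also had lower levels, with Steap4f/f means of 137 to 1324 against 900.1 to 3907 for core and cap. Per kilobase of the principal transcript, Nfe2l1 was the highest of the 50 genes in Steap4f/f at 2347, followed by Psmb6 (2215), Psmd4 (2009) and Psmb7 (2005). The 14 standard core subunits ranged from 480 for Psma2 to 2215 for Psmb6. By the exonic length of all transcripts, Nfe2l1 was again highest (2007 per kilobase), while Psmb6 ranked 11 and Psmb7 ranked 19.

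Copies and overlapping genes touch some of these values. Psmb5 shares 57.1% of its words of 50 bases with 3 other annotated genes and Psmb3 55.8% with 7, none of which has a row in the table, where the highest library of the lowest gene reached 11.8. Psmb7 shares 28.1% of its words with Nek6 on the opposite strand, which had a Steap4f/f mean of 1219 and a Steap4AKO mean of 1704. The sources used here do not say whether the libraries kept strand, so reads over such shared stretches cannot be told apart. Psmb4, Psmc5, Psmd4 and Psmd7, all below without overlap, shared no such word with another gene.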

How the data were processed

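RNA was sequenced in 6 iWAT libraries. STAR 2.7.0e and RSEM 1.3.3 are named per the submitters' processing notes, as are DESeq2 1.12.4, R 4.2.0 and the builds GRCm38 and mm10, with no role or order. The sources used here name no annotation. The table's name says that the values deposited by the authors, here called signal, are DESeq2-normalized counts. With the step that suited each column best, 51.7 to 58.8% of low values came within 0.1 of a whole number of reads, so reads could not be had, count tests were not used and the depth is unknown. GENCODE M21 gave symbols to 15125 of 15176 identifiers.

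Differences were fitted with limma 3.58.1 in R 4.3.3 on log2(value + 1), with a variance trend and no covariate, for 15006 genes with a mean of at least 10. The p-values are two-sided, with Benjamini-Hochberg adjustment over all of these genes. This scale understates differences of low genes. A fold is the ratio of the 2 group means. The fit was tested on simulated data with 200 genes changed in each of 5 runs and the spread of each gene capped. It called 29.9% of 2-fold and 72.4% of 4-fold changes, with 4.4 false calls per run. No gene of the 50 differed by as much as 2-fold, so a lack of calls does not show a lack of change. Intervals are 95%. The muscle index is the mean over 16 markers of the value divided by its Steap4f/f mean.

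The genes and lists were chosen with earlier results of these data known. By a written rule all 50 genes could be named, with full values for the catalytic subunits, activators, Nfe2l1 and Pomp, the 2 smallest p-values of each role and of each pathway list, and the extremes. Full values of Psmb1, Psmb2, Psmc1, Psmd2, Psmd6, Psmd8, Psmd14, Tap1 and Sem1 were added after they were seen. A gene of the ubiquitin list that the rule names is not reported here. Figures were made with Python 3.11.15 and matplotlib 3.10.9. Alternatives were other pseudocounts, filters, scalings, weights, priors, a muscle covariate and each library left out. Equal table sums and the principal transcript length were added after the data were seen.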

Additional observations from a re-analysis of the deposited data

Results flagged for a closer look

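Of 57 values tested for a library far from the rest within Steap4f/f, 4 stood out, where chance gives about 1 in 20. The gap to the nearest library filled most of the range for each. Steap4 had 17018 in replicate 1, Psmc2, an ATPase of the base, had 1977 in replicate 2, Psma2, an alpha subunit, had 1318 in replicate 6, and Psmg2, a core chaperone, had 208 in replicate 5.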

How the results depend on the processing

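No gene of the 50 passed the threshold under any alternative of the fit, with a lowest adjusted p of 0.134 in limma, and 24 of the 50 kept their direction in all 16. The 26 that did not had log2 differences of at most 0.273 in size. Over all genes 71 were called, but 1 with a pseudocount of 0.5, a mean of at least 50, a robust prior or the muscle covariate, 119 with array weights and 1 to 821 with a library left out. With equal table sums, added after the data were seen, the median of the 50 was 0.014. On that scale 5 were below (7.67% of all genes) and 6 above (25.7%) without overlap. The log2 differences that turned positive were 0.14 for Psmd2, 0.14 for Psma2, 0.087 for Psmd3, 0.040 for Psmc3ip, 0.013 for Psma6, 0.042 for Psmc1, 0.012 for Psmc6, 0.055 for Psmg2, 0.14 for Psmd1, 0.15 for Psmd14, 0.10 for Psmc2, 0.015 for Psmg3, 0.061 for Psma1, 0.17 for Psmb10, 0.17 for Psme4, 0.16 for Psma5 and 0.091 for Psme2. Under quantile normalization 15 were below without overlap (13.5% of all genes) and 2 above (15.6%), with a median of -0.16 for the 50. There 0.072 for Psmd2, 0.015 for Psmd1, 0.00068 for Psmb10 and 0.037 for Psme4 turned positive. Scaling by a trimmed mean of log ratios (TMM) gave 20 below without overlap (15.2% of all genes) and 1 above (13.4%), with a median of -0.19 for the 50. Array weights gave -0.015 for Psmd5 and -0.052 for Psmd9. The muscle covariate gave 0.027 for Psmd3, 0.36 for Psmc3ip, 0.035 for Psmd1, -0.031 for Psmd5, -0.017 for Psmb2, 0.0083 for Psmd8 and 0.30 for Psme4. The cause was not tested. With 1 library left out, counts without overlap can only stay or grow, and were 17 to 26 of the 50 below (16.7 to 28.6% of all genes) and 1 to 4 above (16.8 to 31.5%). The median of the 50 ranged from -0.18 to -0.13, and differences of log2 ratios ranged from -0.0043 to 0.53 for Psmb8 over Psmb5, -0.20 to 0.39 for Psmb9 over Psmb6 and 0.34 to 0.53 for Psmb10 over Psmb7. Values that changed sign in at least 1 such fit ranged from -0.13 to 0.28 for Nfe2l1, -0.12 to 0.025 for Psma2, -0.14 to 0.092 for Psma5, -0.11 to 0.081 for Psmb10, -0.60 to 0.055 for Psmb9, -0.25 to 0.0023 for Psmc3ip, -0.0072 to 0.067 for Psmc4, -0.076 to 0.0098 for Psmd1, -0.078 to 0.20 for Psmd13, -0.090 to 0.027 for Psmd14, -0.15 to 0.068 for Psmd2, -0.25 to 0.39 for Psmd5, -0.089 to 0.14 for Psmd9, -0.073 to 0.25 for Psme3 and -0.096 to 0.073 for Psme4. With 1 Steap4AKO library left, it is assumed to vary like the Steap4f/f group. No paired analysis was possible because the groups share only the replicate number 2.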
